A study of Arabidopsis thaliana with 4 samples.

Results

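The comparison described here set the root tip transcriptome after 2 h on narciclasine against that of untreated tips of the same time, across every gene that reached 1 RPKM in either library. RPKM is a read count scaled to gene length and library size. Of 33602 genes in the table, 18792 met that rule. Seedlings of Arabidopsis thaliana, wild type of the Col-0 ecotype and 5 days old, had been moved to 1/2 MS plates holding no narciclasine (control 2 h and control 12 h) or 0.5 µM narciclasine (narciclasine 2 h and narciclasine 12 h), for 2 or 12 h. RNA came from root tips excised at 3 mm, and each of the 4 groups was a single library from a pool of tips. With 1 library a side the comparison has no replicate check and no test, and every ratio below describes these libraries. The range printed after a fold is its exact 95% counting interval, which covers counting error in the reads and nothing else. Counting a gene as higher or lower required a 2-fold ratio or more, with 1 outside the interval.

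Narciclasine is an alkaloid made by daffodils and their relatives. It occupies the site on the large ribosomal subunit where peptide bonds form, and so stops protein synthesis in eukaryotes. The root tip carries the root cap, the meristem and the first elongating cells, which depend on steady protein synthesis. Plants exposed to foreign chemicals commonly switch on a set of conjugating enzymes and efflux transporters, and impaired mitochondria send a retrograde signal to the nucleus that NAC transcription factors carry.

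Libraries held between 11880278 and 14724075 reads, with 14541412 in control 2 h and 14244108 in narciclasine 2 h. Defining markers of the root tip, 14 in number, all passed the filter of 1 RPKM in either 2 h library, and their median log2 ratio was 0.48. Mature root markers were also detected, led by CASP1, a Casparian strip scaffold, at 417 RPKM in control 2 h, 458 in control 12 h and 388 in narciclasine 2 h. Shoot markers were low, with 5 of 8 passing the filter and a summed level of 31.5 RPKM in control 2 h, 23.9 in narciclasine 2 h and 81.4 in control 12 h. The controls themselves differed: between control 12 h and control 2 h, 651 of the same genes were counted higher (3.46%) and 338 lower (1.8%). Time on fresh plates, time of day and library cannot be told apart in that difference. The level in control 12 h is therefore given beside the 2 h levels of the genes described. For many families the counts against it are given beside those at 2 h. Where they are not given, no agreement between the controls is implied. In these bulk samples, fewer cells of a type and less RNA per cell cannot be told apart. The filter took in 96 genes whose higher library lay at most 5% above 1 RPKM and left out 114 that lay at most 5% below it.

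After 2 h, 954 genes were counted higher in the narciclasine library, 5.08% of those compared, and 338 were counted lower (1.8%). The log2 ratio of the median gene was 0.03. Of the higher genes, 224 differed at least 4-fold and 65 at least 10-fold. Among the lower genes those numbers were 55 and 6. The higher genes together held 13133 RPKM in control 2 h, 15081 in control 12 h, 41246 in narciclasine 2 h and 38844 in narciclasine 12 h. The lower genes held 9567, 6698, 3677 and 3969 RPKM in the same order. Both sums were chosen for the 2 h difference, so the levels at 12 h are the ones the choice did not use. Set against control 12 h instead, narciclasine 2 h had 1400 of the same genes counted higher (7.45%) and 831 lower (4.42%). Requiring the rule against each control, a condition added after the values were seen, left 612 higher and 170 lower. Among the most abundant genes, differences in RPKM could be large at a small ratio. EXT3 (AT1G21310), a wall extensin, had 6633 RPKM in control 2 h, 8322 in control 12 h, 5691 in narciclasine 2 h and 5667 in narciclasine 12 h, and was not counted.

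**Figure D1:**
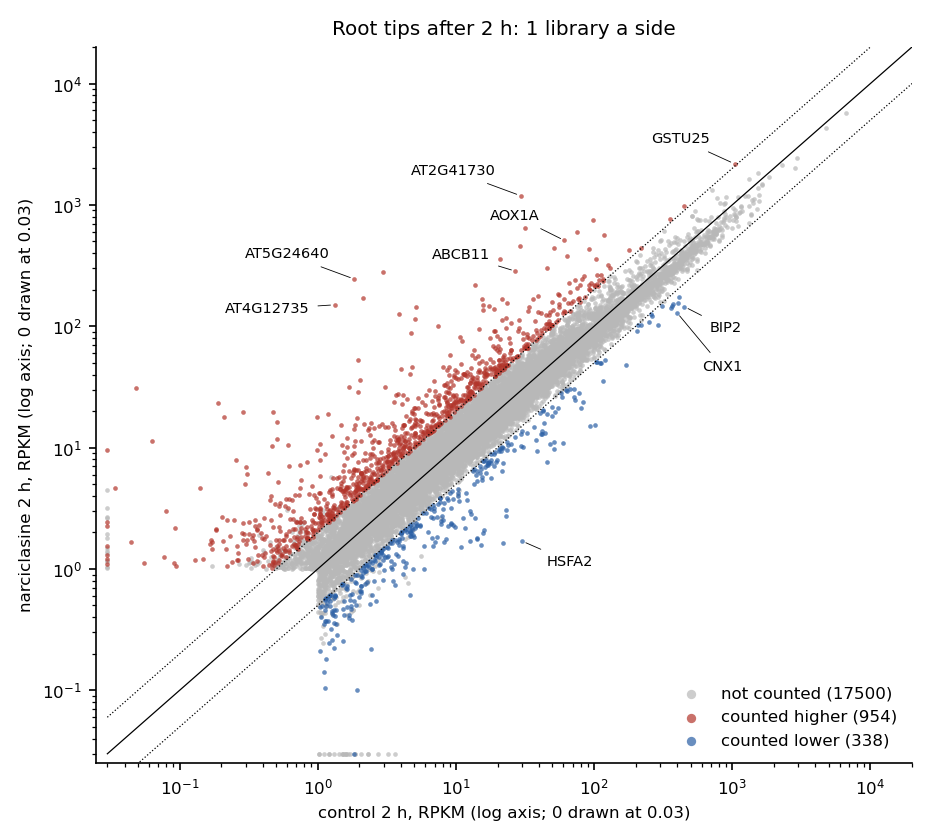
RPKM of each of the 18792 genes in control 2 h (x) and narciclasine 2 h (y), both on log axes, with dotted lines at 2-fold. The 954 genes counted higher reach far from the diagonal at low and middle levels, whereas the 338 counted lower stay closer to it.

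Genes known from mitochondrial retrograde signalling were among those with the largest differences in RPKM. The largest of all higher genes was AT2G41730, annotated as a calcium-binding site protein. It stood at 29.4 RPKM in control 2 h, 22.7 in control 12 h, 1189.8 in narciclasine 2 h and 716 in narciclasine 12 h. Both narciclasine libraries lay far above both controls, and at 2 h the ratio was 40.5-fold (35.2 to 46.8). AOX1A (AT3G22370), the alternative oxidase that lets electrons bypass the cytochrome pathway, had 60.96 RPKM in control 2 h and 509 in narciclasine 2 h, beside 81.1 and 449 in the control and narciclasine libraries of 12 h, a ratio of 8.36-fold (7.89 to 8.85) at 2 h. NDA1 (AT1G07180), an alternative NAD(P)H dehydrogenase of the inner mitochondrial membrane, had 0.308 RPKM in control 2 h, 0.424 in control 12 h, 6.09 in narciclasine 2 h and 23.9 in narciclasine 12 h. BCS1 (AT3G50930), which sits in the outer membrane of mitochondria and hydrolyses ATP, had 220.4 RPKM in narciclasine 2 h against 13.8 in control 2 h, with 23.3 in control 12 h and 210.3 in narciclasine 12 h. AT2G18193, another P-loop ATPase of the same annotation class, had 641 RPKM in narciclasine 2 h against 31.8 in control 2 h, with 18.6 in control 12 h and 625 in narciclasine 12 h. In each of these 5 genes both narciclasine libraries exceeded both controls. NAC13 (AT1G32870), a membrane-bound transcription factor released in mitochondrial stress, had 7.42 RPKM in control 2 h and 101 in narciclasine 2 h, beside 6.56 and 83.04 in the control and narciclasine libraries of 12 h.

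Several of the steepest differences were in genes with no described product. They were picked for the distance of their interval from 1, after their values were seen. AT5G24640 had 1.84 RPKM in control 2 h, 1.73 in control 12 h, 245 in narciclasine 2 h and 155 in narciclasine 12 h, 133-fold (77.8 to 251) higher at 2 h. AT4G12735 had 1.33 RPKM in control 2 h and 150.1 in narciclasine 2 h, beside 1.14 and 115 in the control and narciclasine libraries of 12 h, a ratio of 113-fold (61.4 to 237). For AT2G38823 the values were 2.96 RPKM in control 2 h, 3.81 in control 12 h, 280.4 in narciclasine 2 h and 229 in narciclasine 12 h. For AT3G54530 they were 171 RPKM in narciclasine 2 h against 2.14 in control 2 h, with 2.47 in control 12 h and 61.1 in narciclasine 12 h. All 4 genes were under 4 RPKM in both controls and between 61.1 and 280.4 RPKM in both narciclasine libraries. Next to AT3G54530 on the chromosome, AT3G54520, also uncharacterized, had 0.989 RPKM in control 2 h, 0.832 in control 12 h and 17.8 in narciclasine 2 h. AT4G08555, an uncharacterized gene with a higher starting level, had 751 RPKM in narciclasine 2 h against 97.6 in control 2 h, with 87.6 in control 12 h and 623 in narciclasine 12 h. AT5G55150, an F-box protein, had 11.4 RPKM in narciclasine 2 h against 0.0635 in control 2 h, with 0.0777 in control 12 h and 6.52 in narciclasine 12 h, and its control value rests on very few reads.

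A promoter sequence was shared by part of these genes. The mitochondrial dysfunction motif, the element through which NAC13 and NAC17 act, reads CTTG, 5 free bases, CA, 1 free base and G, and was searched on both strands from 250 bases before to 50 bases after each annotated start. It was found in 62 of 953 promoters of higher genes (6.51%), 9 of 337 of lower genes (2.67%) and 311 of 18720 of all genes compared (1.66%). Among the 100 higher genes with the farthest interval bound it was in 27, and among the 12 genes with the largest difference in RPKM in 6. Read the other way, 19.9% of the promoters with the motif belonged to a gene counted higher, beside 4.84% of those without it. Of 10 promoters with 2 or more matches, 5 belonged to a higher gene and 2 to a lower one. Of 34 named higher genes looked at singly, 15 held a match, and NAC13, BCS1, GSTU25 and AT3G54530 were among those without. A match is a description of the sequence and not evidence of binding. The matches nearest to the start that lie wholly before it are shown for 11 of these genes, in capitals within 12 bases of flank, read along the gene's strand, so that the shared letters and their surroundings can be compared. In AT2G38823 the motif is on the other strand:
AT4G08555: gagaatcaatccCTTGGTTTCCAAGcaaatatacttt
AT2G18193: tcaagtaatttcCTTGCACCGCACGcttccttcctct
AT2G38823: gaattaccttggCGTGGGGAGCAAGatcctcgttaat
AT5G24640: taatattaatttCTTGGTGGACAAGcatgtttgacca
AT4G12735: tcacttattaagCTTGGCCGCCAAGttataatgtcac
AT5G55150: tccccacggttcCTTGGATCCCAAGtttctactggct
ABCB11: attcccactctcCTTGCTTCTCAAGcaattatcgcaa
CYP81D8: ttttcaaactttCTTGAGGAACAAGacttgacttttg
NAC044: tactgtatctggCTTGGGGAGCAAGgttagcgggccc
NDA1: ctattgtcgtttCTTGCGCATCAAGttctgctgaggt
AT2G04050: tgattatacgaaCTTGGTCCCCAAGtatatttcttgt

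Sequences were read from the RefSeq TAIR10.1 genome. The windows of AT4G08555 lie at chr4:5447918-5447954 (plus strand), AT2G18193 at chr2:7919411-7919447 (minus strand), AT2G38823 at chr2:16223906-16223942 (plus strand), AT5G24640 at chr5:8436260-8436296 (plus strand), AT4G12735 at chr4:7494319-7494355 (minus strand), AT5G55150 at chr5:22383456-22383492 (minus strand). Those of ABCB11 lie at chr1:523437-523473 (plus strand), CYP81D8 at chr4:17571859-17571895 (minus strand), NAC044 at chr3:228998-229034 (plus strand), NDA1 at chr1:2204022-2204058 (plus strand), AT2G04050 at chr2:1339600-1339636 (minus strand). All copies lie before the annotated start. CYP81D8 is a cytochrome P450, NAC044 a NAC factor and AT2G04050 a MATE efflux transporter. In AOX1A the motif occurs in the stretch around the start. Its whole promoter window, chr3:7906271-7906570 on the plus strand, is shown with both matches in capitals, which begin at -3 and 25 relative to the annotated start:
AOX1A: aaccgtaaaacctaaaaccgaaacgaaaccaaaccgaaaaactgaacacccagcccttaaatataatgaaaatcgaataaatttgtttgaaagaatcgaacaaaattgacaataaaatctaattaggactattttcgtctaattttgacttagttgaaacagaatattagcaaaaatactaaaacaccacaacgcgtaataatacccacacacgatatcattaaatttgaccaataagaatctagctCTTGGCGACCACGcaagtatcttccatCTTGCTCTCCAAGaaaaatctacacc

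**Figure D2:**
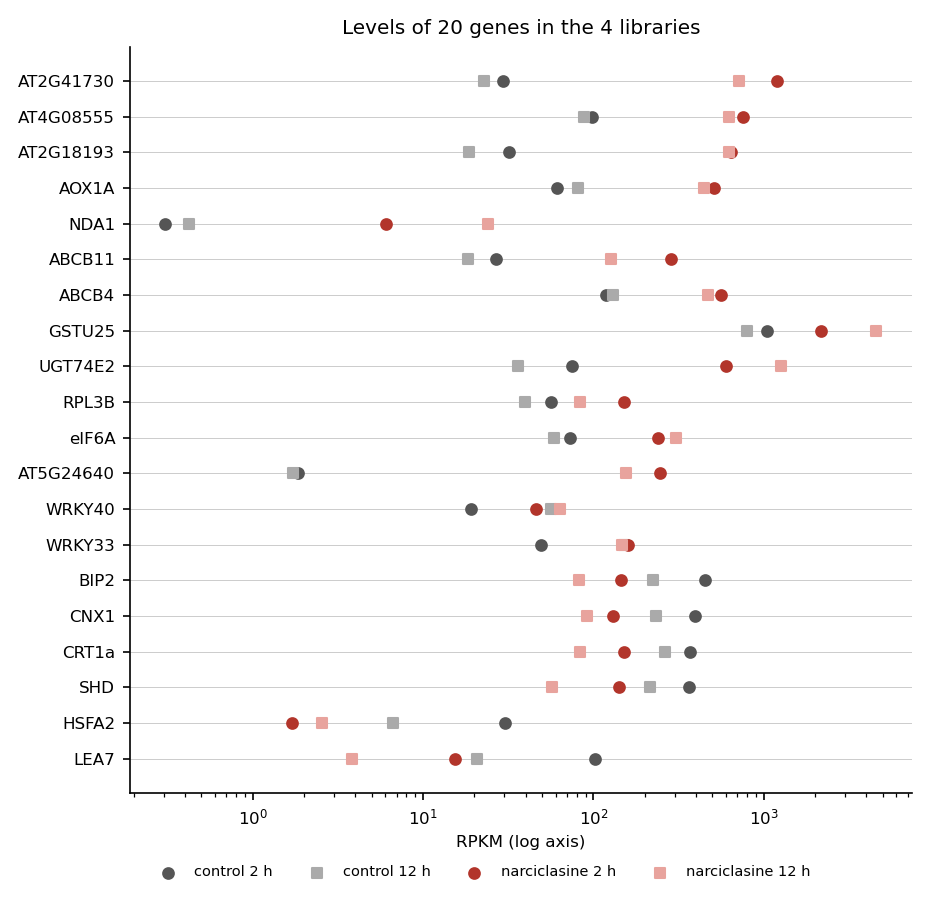
RPKM of 20 genes (rows) in the 4 libraries on a log axis: circles for 2 h, paler squares for 12 h, grey for control and red for narciclasine. In the upper 12 genes both narciclasine symbols lie to the right of both controls. BIP2, CNX1, CRT1a and SHD run in the order control 2 h, control 12 h, narciclasine 2 h and narciclasine 12 h from high to low.

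Genes of conjugation and export included several of the largest differences in RPKM. Over all genes 5.08% were counted higher and 1.8% lower. Cytochrome P450, glycosyltransferase and ABC transporter families lay nearer to that higher share, at 6.98%, 8% and 8.14%. Glutathione transferases, MATE carriers and sulfotransferases lay farther above it, at 12.2%, 17.5% and 21.4%, the last from 3 higher and 1 lower of 14. Their median log2 ratios were 0.06, 0.15 and -0.14, beside 0.03 over all genes, so the families did not differ as a whole. Glutathione transferases attach glutathione to reactive chemicals: 5 of 41 compared (12.2%) were counted higher and 1 lower, and against control 12 h 7 higher and 1 lower. GSTU25 (AT1G17180) was the most abundant of them, at 1039 RPKM in control 2 h, 801 in control 12 h, 2181 in narciclasine 2 h and 4590.0 in narciclasine 12 h. It was high in every library, and its ratio of 2.099-fold (2.06 to 2.14) lay close to the limit of the rule. Its copy GSTU24 (AT1G17170), a near neighbour, had 537 RPKM in control 2 h, 418.5 in control 12 h and 899 in narciclasine 2 h, and reads of such copies may be split uncertainly. GSTU9 (AT5G62480) had 63.7 RPKM in control 2 h and 376 in narciclasine 2 h, beside 60.6 and 359 in the control and narciclasine libraries of 12 h. The scarcer GSTU12 and GSTU11 were 9.19-fold (6.11 to 14.4) and 6.07-fold (4.23 to 8.95) higher, with 0.723 and 1.12 RPKM in control 12 h against 17.6 and 13.9 in narciclasine 2 h. They lie next to each other, so their reads may be split uncertainly too. GSTU5 (AT2G29450) went the other way, with 102 RPKM in narciclasine 2 h against 217 in control 2 h, with 102 in control 12 h and 120.3 in narciclasine 12 h. Here control 12 h equalled the narciclasine library. Glycosyltransferases attach sugar, and their counts were even, 8 higher and 6 lower of 100, with 14 higher and 9 lower against control 12 h. UGT74E2, which glucosylates indole-3-butyric acid, had 75.3 RPKM in control 2 h, 36.3 in control 12 h, 602 in narciclasine 2 h and 1267 in narciclasine 12 h. UGT75B1 had 12.7 RPKM in control 2 h and 33.8 in narciclasine 2 h, beside 9.23 and 43.6 in the control and narciclasine libraries of 12 h. SOT12 (AT2G03760), a sulfotransferase, had 461 RPKM in narciclasine 2 h against 29.2 in control 2 h, with 35.3 in control 12 h and 384 in narciclasine 12 h. Its tandem neighbour AT2G03770 had 0.141 RPKM in control 2 h, 0.173 in control 12 h and 4.61 in narciclasine 2 h, so reads of the pair may be split uncertainly.

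Of 40 MATE efflux carriers 7 were counted higher and 1 lower, and of 86 ABC transporters 7 and 0. The higher MATE genes AT2G04040 and AT2G04050 are neighbours, and reads of such copies may be split uncertainly. Against control 12 h the MATE carriers had 5 higher and 2 lower, and the ABC transporters 9 higher and 5 lower. ABCB4 (AT2G47000), a root auxin transporter, had 118 RPKM in control 2 h, 131 in control 12 h, 561 in narciclasine 2 h and 472 in narciclasine 12 h. ABCB11 (AT1G02520), a transporter of the same subfamily, had 26.9 RPKM in control 2 h and 284 in narciclasine 2 h, beside 18.4 and 127 in the control and narciclasine libraries of 12 h. ABCC3 (AT3G13080), which moves glutathione conjugates into the vacuole, had 149 RPKM in narciclasine 2 h against 15.6 in control 2 h, with 14.7 in control 12 h and 496 in narciclasine 12 h. In all 3 both narciclasine libraries were above both controls, and ABCC3 was higher at 12 h than at 2 h. Cytochrome P450 genes had 9 higher and 1 lower of 129, shares not far from those of all genes, and against control 12 h 15 higher and 13 lower. The neighbouring CYP706A1 and CYP706A2 were 10.5-fold (7.39 to 15.3) and 15.9-fold (11.03 to 23.6) higher, with 1.41 and 1.93 RPKM in control 12 h against 10.8 and 18.9 in narciclasine 2 h. Among oxidoreductases outside these families, MO1 (AT4G15760), a FAD monooxygenase, had 51.7 RPKM in control 2 h and 443 in narciclasine 2 h, beside 48.2 and 237 in the control and narciclasine libraries of 12 h. OPR1 (AT1G76680) reduces 12-oxophytodienoate and related compounds. It had 451 RPKM in control 2 h, 383 in control 12 h, 974 in narciclasine 2 h and 458 in narciclasine 12 h, so that its narciclasine 12 h level was back near control 2 h. AT5G43450, a 2-oxoglutarate-dependent oxygenase, had 145 RPKM in narciclasine 2 h against 5.13 in control 2 h, with 2.28 in control 12 h and 42.1 in narciclasine 12 h. AT2G32020, an acyltransferase of the GNAT class, had 20.7 RPKM in control 2 h and 361 in narciclasine 2 h, beside 30.6 and 239 in the control and narciclasine libraries of 12 h.

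Transcription factor families differed in their share of higher genes. Among all genes compared, 5.08% were counted higher and 1.8% lower at 2 h. Against control 12 h the shares of all genes were 7.45% and 4.42%. WRKY factors, regulators of defence that bind W-boxes, had 17 of 59 counted higher and 0 lower, with a median log2 ratio of 0.49 beside 0.03 over all genes. WRKY25 (AT2G30250) had 18.8 RPKM in control 2 h, 30.6 in control 12 h, 91.9 in narciclasine 2 h and 66.4 in narciclasine 12 h. WRKY72 (AT5G15130) had 68.5 RPKM in narciclasine 2 h against 18.7 in control 2 h, with 19.2 in control 12 h and 25.2 in narciclasine 12 h. WRKY30 (AT5G24110) had 2.56 RPKM in control 2 h and 14.4 in narciclasine 2 h, beside 2.94 and 2.16 in the control and narciclasine libraries of 12 h. WRKY54 was 10.2-fold (5.33 to 21.9) higher, with 0.755 RPKM in control 12 h and 5.25 in narciclasine 2 h. These 4 exceeded both controls at 2 h. WRKY40 did not: it had 19.1 RPKM in control 2 h, 56.7 in control 12 h, 46.3 in narciclasine 2 h and 63.9 in narciclasine 12 h. Against control 12 h the family had 14 higher and 5 lower, with a median of 0.48. VQ motif proteins, partners of WRKY factors, had 11 of 22 higher and a median of 1.01. That family was chosen after the values were seen. One of them, AT1G17147, had 73.2 RPKM in narciclasine 2 h against 24.7 in control 2 h, with 50.6 in control 12 h and 35.1 in narciclasine 12 h. Control 12 h lay above control 2 h for the VQ genes (median log2 0.60), and against it 4 were counted higher. The part of that control difference in the result was not tested.

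GATA and Dof zinc finger factors had 12 of 47 higher and 0 lower (median 0.45), and against control 12 h 17 higher and 0 lower, with a median of 0.80. GATA16 had 11.5 RPKM in control 2 h, 12.5 in control 12 h and 40.5 in narciclasine 2 h. For GATA20 the levels were 3.799 RPKM in control 2 h, 3.34 in control 12 h and 11.7 in narciclasine 2 h, and for DOF6 2.25 RPKM in control 2 h, 1.65 in control 12 h and 7.86 in narciclasine 2 h. C2H2 zinc finger genes had 11 of 66 higher and 0 lower, and against control 12 h 10 higher and 1 lower. AT3G46080 was among them with 17.4 RPKM in control 2 h, 23.98 in control 12 h, 148 in narciclasine 2 h and 205 in narciclasine 12 h. AP2/ERF factors were split, 22 higher and 7 lower of 92, and against control 12 h 25 higher and 14 lower. DREB2C (AT2G40340), of the dehydration-responsive DREB2 group, had 4.77 RPKM in control 2 h and 45.8 in narciclasine 2 h, beside 4.14 and 62.9 in the control and narciclasine libraries of 12 h. The cold-response activators CBF1 and CBF2 were 5.88-fold (1.72 to 31.1) and 3.92-fold (2.197 to 7.43) lower, the first from few reads, and control 12 h (3.11 and 17.5 RPKM) lay above control 2 h (1.31 and 4.37). EBP (AT3G16770), also called RAP2.3, had 2.62 RPKM in narciclasine 2 h against 13.7 in control 2 h, with 5.62 in control 12 h and 3.81 in narciclasine 12 h. NAC factors had 9 higher and 3 lower of 70, and against control 12 h 14 higher and 7 lower. ATAF2 (AT5G08790) was the most abundant of those named, with 103 RPKM in control 2 h, 136 in control 12 h, 357 in narciclasine 2 h and 375 in narciclasine 12 h. In the GRAS family 5 of 34 were higher, among them SCL14 (AT1G07530), which acts with TGA factors on detoxification genes, with 15.96 RPKM in control 2 h and 38.8 in narciclasine 2 h, beside 14.4 and 44.5 in the control and narciclasine libraries of 12 h. MYB factors had 14 higher and 2 lower of 101, bZIP factors 4 and 0 of 49, LBD factors 4 and 0 of 14, and bHLH factors 3 and 5 of 88. The higher shares of bZIP (8.16%) and bHLH (3.41%) factors lay nearer to the 5.08% of all genes than those of MYB (13.9%) and LBD (28.6%) factors. Measured from control 12 h, MYB factors had 10 higher and 8 lower, bZIP factors 7 and 0, and LBD factors 2 and 0. GRAS factors had 5 higher and 1 lower, and bHLH factors 9 and 5. Of all genes compared, 7.45% were counted higher and 4.42% lower against control 12 h, so higher outnumbered lower there too. The bHLH counts turned from more lower to more higher, with 5 lower against either control. The median of that family was positive against either control, 0.26 for control 2 h and 0.20 for control 12 h.

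The W-box core TTGAC was in 63.6% of the promoters of higher genes, 48.4% of those of lower genes and 51.3% of all. With C or T after the core, a form added after the values were seen, the shares were 48.1%, 26.4% and 33.1%, and 60 of the 100 higher genes with the farthest bound held it. Of the 17 WRKY genes counted higher, 13 held the core in their own promoter, and WRKY7, WRKY18, WRKY54 and WRKY71 did not. Windows from 4 of those with it are shown, with the core or its complement GTCAA in capitals. WRKY72 has the core followed by G, so its window is not of the longer form:
WRKY33: atattttcaacgGTCAAactttttatcac
WRKY30: ttcagtcaaaaaGTCAAactatctctctc
WRKY72: catgttgaagtgTTGACgctttgggtccc
WRKY53: tttggtcatttgGTCAAattttcaaacac
They lie at chr2:16108192-16108220 (plus strand) for WRKY33, chr5:8154754-8154782 (minus strand) for WRKY30, chr5:4904256-4904284 (plus strand) for WRKY72 and chr4:12394036-12394064 (minus strand) for WRKY53. WRKY33 had 49.6 RPKM in control 2 h, 151 in control 12 h, 159 in narciclasine 2 h and 148 in narciclasine 12 h, so control 12 h lay beside the narciclasine libraries. WRKY53 had 5.18, 15.3, 16.9 and 10.7 RPKM in the same order.

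**Figure D3:**
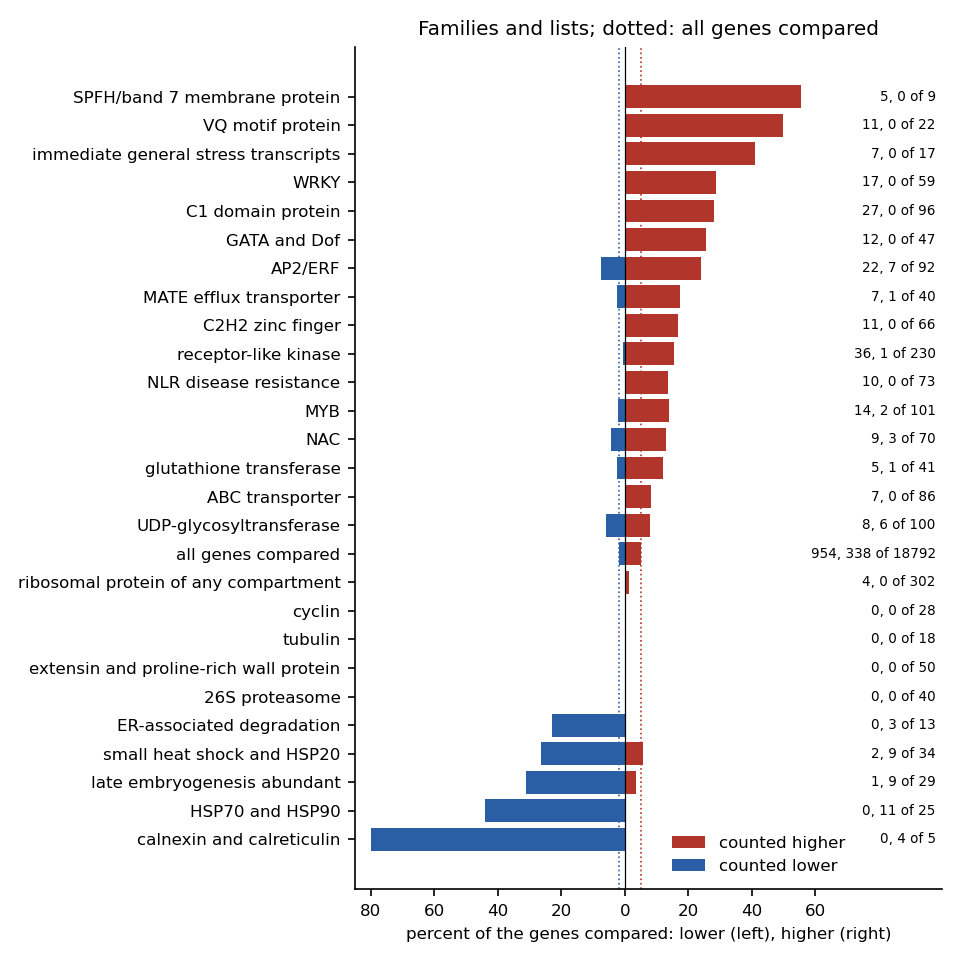
Percent of the compared genes of 26 families and lists, and of all genes, counted lower (left, blue) or higher (right, red), with the counts at the right and dotted lines at the shares over all genes (5.08% and 1.8%). Transcription factor, VQ and C1 domain families extend to the right, whereas chaperone and late embryogenesis abundant families extend to the left.

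Receptor-like kinases, which perceive peptides and microbial patterns at the cell surface, had 36 higher and 1 lower of 230 (median 0.31), and against control 12 h 33 higher and 3 lower, with a median of 0.37. At 12 h the narciclasine library had 14 of the same genes higher and 50 lower than its control. Over all genes compared the 12 h shares were 11.6% higher and 15.2% lower, so the balance turned there as well. The difference between the times was not tested. LECRKA4.2 (AT5G01550), a lectin receptor kinase, had 7.02 RPKM in control 2 h, 14.8 in control 12 h, 29.3 in narciclasine 2 h and 11.7 in narciclasine 12 h. AT1G05700, a leucine-rich repeat kinase, had 0.994 RPKM in control 2 h and 9.55 in narciclasine 2 h, beside 0.461 and 9.103 in the control and narciclasine libraries of 12 h. Intracellular NLR resistance genes had 10 of 73 higher and 0 lower, all from low levels, and against control 12 h 7 higher and 1 lower. AT3G04220 had 0.528 RPKM in control 2 h, 0.8404 in control 12 h and 3.32 in narciclasine 2 h. Of 52 genes for secreted signalling peptides 8 were higher and 1 lower, and against control 12 h 8 higher and 3 lower. At 2 h that was 15.4% and 1.92%, beside 5.08% and 1.8% of all genes compared. The receptor-like kinases had 15.7% higher at 2 h and the NLR genes 13.7%. Against control 12 h the shares of all genes were 7.45% and 4.42%. PROPEP2, precursor of an elicitor peptide, had 27.2 RPKM in narciclasine 2 h against 4.12 in control 2 h, with 16.9 in control 12 h and 9.19 in narciclasine 12 h. The root meristem growth factor RGF1 had 2.48 RPKM in control 2 h, 0.535 in control 12 h and 8.92 in narciclasine 2 h, and RGF8 had 3.65 RPKM in control 2 h, 2.23 in control 12 h and 13.98 in narciclasine 2 h. PROPEP5 was listed at 0 in narciclasine 2 h and at 1.82 RPKM in control 2 h and 1.62 in control 12 h.

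C1 domain proteins, a plant family of cysteine and histidine-rich zinc-binding proteins whose functions are mostly undescribed, had 27 of 96 counted higher and 0 lower, with a median of 0.65. The share counted higher was 28.1%, beside 5.08% of all genes compared. The C1 family was chosen after its values were seen. AT5G40590 led it with 15.6 RPKM in control 2 h, 9.23 in control 12 h, 136 in narciclasine 2 h and 25.1 in narciclasine 12 h, 8.69-fold (7.56 to 10.03) higher. AT5G43520 had 20.1 RPKM in control 2 h and 68.7 in narciclasine 2 h, beside 22.2 and 9.38 in the control and narciclasine libraries of 12 h. AT3G13760 had 14.8 RPKM in narciclasine 2 h against 3.23 in control 2 h, with 3.18 in control 12 h and 6.31 in narciclasine 12 h. Against control 12 h 39 C1 genes were counted higher and 0 lower. At 12 h the narciclasine library had 7 of them higher and 26 lower than its control. The 12 h shares of all genes compared were 11.6% higher and 15.2% lower. Many C1 genes lie in tandem clusters of similar sequence, and how reads shared by copies were counted is not given in the sources used here. Band 7 membrane proteins, also chosen after the values were seen, had 5 of 9 higher, and against control 12 h 4 higher and 0 lower, with a median of 0.20, beside 1.15 at 2 h. AT5G54100 and AT4G27585 encode stomatin-like proteins of the mitochondrial inner membrane. The first had 22.9 RPKM in control 2 h, 20.8 in control 12 h, 118 in narciclasine 2 h and 104 in narciclasine 12 h. The second had 24.2 RPKM in control 2 h, 23.4 in control 12 h, 79.7 in narciclasine 2 h and 91.9 in narciclasine 12 h. In both genes both narciclasine libraries were above both controls.

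Transcripts that respond within minutes to many kinds of handling differed between the controls as well. Of 17 on that list 7 were higher and 0 lower at 2 h, with a median of 0.95. Control 12 h was above control 2 h by a median of 1.12, and against control 12 h the median of narciclasine 2 h was -0.12. WRKY18 (AT4G31800) had 14.6 RPKM in control 2 h, 31.7 in control 12 h, 49.7 in narciclasine 2 h and 46.1 in narciclasine 12 h. RHL41 (AT5G59820), known as ZAT12, had 100.1 RPKM in control 2 h and 219 in narciclasine 2 h, beside 162 and 247 in the control and narciclasine libraries of 12 h. ZAT11 (AT2G37430) was highest in narciclasine 2 h alone, with 63.9 RPKM in narciclasine 2 h against 19.8 in control 2 h, with 26.2 in control 12 h and 18.3 in narciclasine 12 h. FRK1, a kinase gene used as a marker of immune signalling, had 11.3 RPKM in control 2 h, 1.47 in control 12 h, 23.1 in narciclasine 2 h and 1.21 in narciclasine 12 h, so both 2 h libraries lay above both 12 h libraries. The part of handling in these values was not tested. Calcium sensors had 7 of 56 higher and 6 higher and 3 lower against control 12 h, led by TCH3, a touch-induced calmodulin-like gene, with 33.01 RPKM in control 2 h and 133 in narciclasine 2 h, beside 25.04 and 519.6 in the control and narciclasine libraries of 12 h. Calcium-dependent and CBL-interacting protein kinases had 1 of 46 higher (2.17%), a share under the 5.08% of all genes. It was CPK27, with 23.6 RPKM in narciclasine 2 h against 3.54 in control 2 h, with 1.91 in control 12 h and 4.52 in narciclasine 12 h. MAP kinase cascade genes had 6 higher and 1 lower of 44, among them MKK9, with 14.6 RPKM in control 2 h, 25.04 in control 12 h and 43.4 in narciclasine 2 h. Their higher share was 13.6% and that of the calcium sensors 12.5%, both above the share of all genes.

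Some abscisic acid receptors were counted higher, and some genes of drying tissue lower. Of 10 PYR/PYL receptor genes 3 were higher and 0 lower. PYL4 (AT2G38310) had 82.3 RPKM in control 2 h, 46.96 in control 12 h, 245 in narciclasine 2 h and 108 in narciclasine 12 h. PYL5 (AT5G05440) had 34.1 RPKM in control 2 h and 144 in narciclasine 2 h, beside 25.2 and 58.9 in the control and narciclasine libraries of 12 h. PYL6 (AT2G40330) had 57.6 RPKM in narciclasine 2 h against 9.05 in control 2 h, with 4.72 in control 12 h and 15.5 in narciclasine 12 h. All 3 exceeded both controls in both narciclasine libraries. The receptor family was chosen after its values were seen. Late embryogenesis abundant proteins, which accumulate in drying tissue, had 9 lower and 1 higher of 29 (median -0.50). The shares were 31.0% and 3.45%, beside 1.8% and 5.08% of all genes. LEA7 (AT1G52690) had 102 RPKM in control 2 h, 20.7 in control 12 h, 15.4 in narciclasine 2 h and 3.82 in narciclasine 12 h. LEA4-5 (AT5G06760) had 93.6 RPKM in control 2 h and 14.9 in narciclasine 2 h, beside 26.5 and 13.4 in the control and narciclasine libraries of 12 h. AT4G38410, a dehydrin, had 9.43 RPKM in narciclasine 2 h against 38.8 in control 2 h, with 4.62 in control 12 h and 0.785 in narciclasine 12 h. For these 3 control 12 h was already well below control 2 h. Against control 12 h the family had 7 higher and 5 lower, with a median of -0.17, so its direction by counts rests on control 2 h. DI21 (AT4G15910), induced by drought, was the fourth in order of difference in RPKM among lower genes, with 410.2 RPKM in control 2 h, 291 in control 12 h, 175 in narciclasine 2 h and 173 in narciclasine 12 h. The clade A phosphatase HAI1, which blocks abscisic acid signalling, had 12.9 RPKM in control 2 h and 2.84 in narciclasine 2 h, beside 10.5 and 5.95 in the control and narciclasine libraries of 12 h. HB-7 (AT2G46680), a homeobox gene, had 7.67 RPKM in narciclasine 2 h against 45.8 in control 2 h, with 43.9 in control 12 h and 25.7 in narciclasine 12 h. Both were lower in narciclasine 2 h than in either control.

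The G-box CACGTG, which bZIP factors of abscisic acid and other pathways bind, was in 21.96% of the promoters of lower genes, 6.51% of those of higher genes and 8.74% of all. Its core ACGTG was in 48.96%, 27.2% and 27.96%, and every G-box contains that core. Of 21 named lower genes looked at, 7 held the G-box. It is shown in capitals in 4 of them, of this group and of the endoplasmic reticulum:
LEA7: aacgtgagtcacCACGTGtctaacatcttc
LEA4-5: aaggctttccaaCACGTGtaggaccaataa
UTR1: gtgattagcttcCACGTGgaacatcgacgt
UTR3: atgacacagttaCACGTGgaaaatctacgt
These windows lie at chr1:19619494-19619523 (plus strand) for LEA7, chr5:2090540-2090569 (minus strand) for LEA4-5, chr2:801463-801492 (plus strand) for UTR1 and chr1:4913183-4913212 (minus strand) for UTR3. UTR1 and UTR3 import nucleotide sugars into the endoplasmic reticulum.

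Chaperones of the endoplasmic reticulum were 5 of the 7 genes with the largest difference in RPKM among those counted lower, BIP2 and CNX1 first. BIP2 (AT5G42020), the lumenal HSP70, had 450.2 RPKM in control 2 h, 225 in control 12 h, 145 in narciclasine 2 h and 82.3 in narciclasine 12 h, 3.11-fold (3.01 to 3.21) lower at 2 h. CNX1 (AT5G61790), calnexin, had 398 RPKM in control 2 h and 129.6 in narciclasine 2 h, beside 232 and 92.4 in the control and narciclasine libraries of 12 h. The calreticulin CRT1a had 370.2 RPKM in control 2 h, 262 in control 12 h, 152 in narciclasine 2 h and 83.01 in narciclasine 12 h. For CRT1b the levels were 364 RPKM in control 2 h, 235 in control 12 h, 148 in narciclasine 2 h and 50.6 in narciclasine 12 h. SHD (AT4G24190), the HSP90 of this compartment, had 142 RPKM in narciclasine 2 h against 362 in control 2 h, with 215 in control 12 h and 57.5 in narciclasine 12 h. In these 5 genes the levels ran in 1 order, from control 2 h through control 12 h and narciclasine 2 h to narciclasine 12 h. Beside 1.8% of all genes compared, 4 of 5 calnexin and calreticulin genes were lower (median -1.30). Measured from control 12 h, their median was -0.79 and none passed the rule. The J-domain partner ATERDJ3B (AT3G62600) had 170.2 RPKM in control 2 h, 95.1 in control 12 h and 47.8 in narciclasine 2 h, and P58IPK had 70.996 RPKM in control 2 h, 41.9 in control 12 h and 26.3 in narciclasine 2 h. Of 13 genes for degradation of misfolded proteins 3 were lower, Hrd1B and the derlins DER1 and DER2.1. Against control 12 h that family had 1 higher and 2 lower. Genes annotated with translocon, signal peptidase or signal recognition terms, plastid ones included, had 4 lower and 1 higher of 64, AT5G50460 (a Sec61 gamma subunit, with 258 RPKM in control 2 h, 194 in control 12 h and 126 in narciclasine 2 h) among them. The translocon group had 2 higher and 3 lower against control 12 h. Disulfide isomerases had 1 of 14 lower at 2 h, and vesicle coat and oligosaccharyltransferase genes 0 in either direction. These compartment families were chosen after their values were seen.

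BZIP60 (AT1G42990), the transcription factor that the unfolded protein response splices and that in turn raises these chaperones, had 39.4 RPKM in control 2 h, 44.99 in control 12 h, 179 in narciclasine 2 h and 121 in narciclasine 12 h. It was higher in both narciclasine libraries while its usual targets were lower. The ER stress element, CCAAT, 10 free bases and CACG, was found in 3.86% of the promoters of lower genes, 0.525% of higher genes and 1.1004% of all. It was added after the values were seen. Of 14 named genes looked at, nearly all of them counted lower, 4 held it: CNX1, CRT1a, SHD and AT1G27330. BIP1, BIP2, CRT1b and CRT3 did not. The copies in CRT1a (on the other strand) and SHD are shown in capitals:
CRT1a: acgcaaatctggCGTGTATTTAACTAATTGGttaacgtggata
SHD: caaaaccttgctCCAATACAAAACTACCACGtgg
They lie at chr1:21092747-21092789 (minus strand) and chr4:12556059-12556092 (minus strand).

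Cytosolic heat shock genes were lower as well. Over all compartments, 11 of 25 HSP70 and HSP90 genes were lower and 0 higher (median -0.61), and of 34 small heat shock genes 9 were lower and 2 higher (median -0.26). The lower shares were 44% and 26.5%, beside 1.8% of all genes. The small heat shock genes had 3 higher and 1 lower, with a median of -0.10 against control 12 h, so more were counted higher than lower. AT3G09440, a cytosolic HSP70, had 406 RPKM in control 2 h, 156 in control 12 h, 155 in narciclasine 2 h and 252 in narciclasine 12 h. HSP81-2, a cytosolic HSP90, had 311 RPKM in control 2 h, 145 in control 12 h, 146 in narciclasine 2 h and 153 in narciclasine 12 h. For its copy HSP81-3 the levels were 249.8 RPKM in control 2 h, 129 in control 12 h, 109 in narciclasine 2 h and 125 in narciclasine 12 h. For these 3 genes control 2 h was the library that stood apart, and control 12 h equalled or lay near narciclasine 2 h. HSFA2 (AT2G26150), a heat shock factor, had 30.1 RPKM in control 2 h and 1.696 in narciclasine 2 h, beside 6.64 and 2.56 in the control and narciclasine libraries of 12 h, below both controls. For the HSP70 and HSP90 genes the median log2 ratio of control 12 h over control 2 h was -0.65, and against control 12 h the narciclasine 2 h library had 1 higher and 0 lower, with a median of -0.03. The part of the control 2 h library in these differences was not tested. AT5G51440, a small heat shock gene, went against the family with 167 RPKM in narciclasine 2 h against 60.8 in control 2 h, with 17.3 in control 12 h and 106 in narciclasine 12 h. Of 15 heat shock factors 3 were higher (HSFA3, HSFA8 and HSFB3) and 2 lower (HSFA2 and HSFA6B), and against control 12 h 1 higher and 2 lower. The heat shock element of 3 units (GAA, 2 free bases, TTC, 2 free bases, GAA, or its complement) was in 3.86% of the promoters of lower genes, 0.525% of higher and 0.582% of all, a form added after the values were seen. Of 20 named lower genes looked at, 3 held it, AT3G09440, HSP70 and HSFA2. The copy of HSFA2 lies at chr2:11135524-11135560 (plus strand):
HSFA2: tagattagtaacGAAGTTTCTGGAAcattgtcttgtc

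Few genes of the translation machinery, the target of the drug, passed the 2-fold rule, and single members stood out. Ribosomal protein genes of any compartment had 4 of 302 higher and 0 lower, with a median log2 ratio of -0.27. Only 56 of the 302 had a ratio above 1. Their summed RPKM over all 302 was 70071 in control 2 h, 49332 in control 12 h and 56139 in narciclasine 2 h. For the same genes the median log2 ratio of control 12 h over control 2 h was -0.48, and that of narciclasine 2 h over control 12 h 0.18. RPL3B (AT1G61580), a minor copy of the ribosomal protein L3 that lines the peptidyl transferase centre, had 56.1 RPKM in control 2 h, 39.9 in control 12 h, 151 in narciclasine 2 h and 83.3 in narciclasine 12 h. The major copy, AT1G43170, had 756 RPKM in control 2 h and 629 in narciclasine 2 h, beside 507 and 709.8 in the control and narciclasine libraries of 12 h. The minor copy was thus 2.698-fold (2.52 to 2.89) higher while the major one stayed within the 2-fold limit. This pair was chosen after its values were seen. eIF6A (AT3G55620), which keeps free large subunits from joining small ones, had 238 RPKM in narciclasine 2 h against 73.1 in control 2 h, with 58.6 in control 12 h and 305 in narciclasine 12 h, 3.26-fold (3.05 to 3.49) higher. Initiation factors had 3 of 39 higher (7.69%, beside 5.08% of all genes) and 0 lower, and elongation factors 0 of 36 either way. EMB1030 (AT5G22800), an alanyl-tRNA synthetase, had 1.55 RPKM in control 2 h, 2.196 in control 12 h, 9.25 in narciclasine 2 h and 181 in narciclasine 12 h. AT1G17960, a threonyl-tRNA synthetase, had 1.54 RPKM in control 2 h and 7.22 in narciclasine 2 h, beside 2.31 and 62.5 in the control and narciclasine libraries of 12 h. They were the 2 aminoacyl-tRNA synthetases counted of 50, and in both the level at 12 h was far above that at 2 h. NUC-L2, a stress-induced nucleolin, had 1.15 RPKM in control 2 h, 1.08 in control 12 h, 3.31 in narciclasine 2 h and 29.3 in narciclasine 12 h.

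Nutrient and metabolism lists had few genes counted, and their shares differed. At 2 h 23.1% of the nitrate list was counted higher, 5.26% of the sulfate list and 5.88% of the iron list. Of all genes compared, 5.08% were higher and 1.8% lower, and against control 12 h 7.45% and 4.42%. For nitrate, 3 of 13 were higher and 1 lower, and against control 12 h 3 higher and 2 lower. NRT2:1, a high-affinity nitrate transporter, had 10.9 RPKM in control 2 h, 5.98 in control 12 h, 24.8 in narciclasine 2 h and 40.6 in narciclasine 12 h. LBD38 (AT3G49940), a repressor of nitrogen-responsive genes, had 91.3 RPKM in control 2 h and 203 in narciclasine 2 h, beside 82.8 and 190.2 in the control and narciclasine libraries of 12 h. NIA1 (AT1G77760), nitrate reductase, was lower at 2 h only, with 15.8 RPKM in narciclasine 2 h against 43.7 in control 2 h, with 57.8 in control 12 h and 96.4 in narciclasine 12 h. NRT1.8, which retrieves nitrate from the xylem, belongs to the transporter family rather than the list and had 1.63 RPKM in control 2 h, 1.29 in control 12 h, 12.1 in narciclasine 2 h and 26.2 in narciclasine 12 h. For sulfate, 1 of 19 was higher, SERAT2;1, a serine acetyltransferase, with 129.6 RPKM in control 2 h and 302 in narciclasine 2 h, beside 178 and 336 in the control and narciclasine libraries of 12 h. AT5G26220 (GGCT2;1), which degrades glutathione, and BGLU28, a glucosidase of sulfur-starved roots, were 8.46-fold (5.98 to 12.3) and 5.35-fold (4.06 to 7.17) lower. In both genes control 2 h was the high library, at 22.9 and 11.6 RPKM, against 1.72 and 0.259 in control 12 h. In the iron list AT3G13610 (F6'H1), the coumarin enzyme, was higher with 166 RPKM in narciclasine 2 h against 76.2 in control 2 h, with 83.99 in control 12 h and 128 in narciclasine 12 h. IRT1 (AT4G19690), the iron importer, was lower. It had 15.5 RPKM in control 2 h, 49.8 in control 12 h, 5.38 in narciclasine 2 h and 142 in narciclasine 12 h. Of 17 genes in the iron list 1 was higher and 1 lower at 2 h, and 1 higher and 6 lower against control 12 h. The regulator FIT (AT2G28160) was 1.97-fold (1.81 to 2.15) higher and did not reach the 2-fold limit, with 48.6 RPKM in control 2 h, 36.3 in control 12 h and 95.8 in narciclasine 2 h.

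In indole glucosinolate and camalexin synthesis, 4 of 19 were higher and 0 lower, and against control 12 h 4 higher and 1 lower. MYB51, an activator of the pathway, had 8.898 RPKM in control 2 h, 17.9 in control 12 h and 39.98 in narciclasine 2 h. CYP81F2, which hydroxylates indole glucosinolates, had 3.79 RPKM in control 2 h, 2.198 in control 12 h and 27.5 in narciclasine 2 h. The methyltransferase gene IGMT2 had 49.5 RPKM in control 2 h, 32.5 in control 12 h and 103 in narciclasine 2 h. For PAD3, the last enzyme of camalexin synthesis, the levels were 7.42 RPKM in control 2 h, 6.64 in control 12 h and 14.9 in narciclasine 2 h. Anthranilate synthase at the head of tryptophan synthesis was not counted, with 14.4 RPKM in control 2 h, 13.5 in control 12 h and 15.4 in narciclasine 2 h for ASA1. Among markers of sugar starvation 2 of 11 were higher, DIN10 with 41.04 RPKM in control 2 h, 44.9 in control 12 h, 128 in narciclasine 2 h and 42.1 in narciclasine 12 h. The other was bZIP63 (BZO2H3), with 9.98 RPKM in control 2 h and 27.2 in narciclasine 2 h, beside 9.55 and 16.8 in the control and narciclasine libraries of 12 h. ERD5, the proline dehydrogenase that degrades proline, had 217 RPKM in narciclasine 2 h against 78.7 in control 2 h, with 44.2 in control 12 h and 107 in narciclasine 12 h. P5CS1, which makes proline, had 69.9 RPKM in control 2 h, 67.1 in control 12 h and 61.8 in narciclasine 2 h. ATG8E was the 1 autophagy gene of 21 counted, and control 12 h (199 RPKM) lay between control 2 h (84.8) and narciclasine 2 h (260.1). Of all genes compared, 5.08% were counted higher at 2 h. The indole list had 21.1% higher and the sugar starvation list 18.2%, whereas autophagy genes, at 4.76%, lay near the share of all genes. Phosphate starvation genes had 0 higher and 1 lower of 15, clock genes 0 and 2 of 14, and salicylic acid genes 1 and 0 of 11. Against control 12 h the counts were 1 and 2, 1 and 0, and 2 and 1 in the same order. Phenylpropanoid (16 genes, median -0.29), mRNA decay (15, 0.21) and TOR and GCN2 genes (10, -0.03) had 0 counted either way.

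Most growth and cell division families had few genes counted at 2 h, while histone genes leaned higher as a group. Of 28 cyclins, 26 kinesins, 18 tubulins, 50 extensin and proline-rich wall proteins and 40 proteasome subunits, 0 were counted in either direction. Their medians were -0.01, 0.01, -0.22, -0.13 and -0.12. TUA6, an alpha tubulin, had 362 RPKM in control 2 h, 307 in control 12 h and 230.3 in narciclasine 2 h. At 12 h the narciclasine library had 20 of the same cyclins, 12 kinesins and 10 tubulins lower than its control. Of all genes compared, 15.2% were counted lower at 12 h. Histone genes had 4 of 46 higher (8.7%, beside 5.08% of all genes) and 0 lower, and a median of 0.58. Against control 12 h they had 8 higher and 1 lower, with a median of 0.52. GAMMA-H2AX (AT1G54690), the variant phosphorylated at DNA breaks, had 56.1 RPKM in control 2 h, 44.7 in control 12 h, 144 in narciclasine 2 h and 105 in narciclasine 12 h. Of the root tip markers MGP, a target of SHORT-ROOT, had 16.5 RPKM in control 2 h and 40.2 in narciclasine 2 h, beside 11.1 and 14.5 in the control and narciclasine libraries of 12 h. PLT2, a meristem regulator, had 11.8 RPKM in narciclasine 2 h against 5.795 in control 2 h, with 2.72 in control 12 h and 5.79 in narciclasine 12 h. WOX5, the quiescent centre gene, had 19.8 RPKM in control 2 h, 1.91 in control 12 h, 7.86 in narciclasine 2 h and 1.45 in narciclasine 12 h. Both 12 h libraries were low for WOX5, so control 2 h was the library that stood highest. XTH genes, which remodel xyloglucan, had 3 of 25 higher and 1 lower, and against control 12 h 2 higher and 2 lower. SUC1, a sucrose importer, had 20.8 RPKM in control 2 h and 64.8 in narciclasine 2 h, beside 21.6 and 48.2 in the control and narciclasine libraries of 12 h.

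Beyond function, higher genes had a single exon more often than all genes compared, and lower genes did so as well, to a lesser degree. Of 938 coding genes counted higher, 34.01% had a single annotated exon, as had 26.4% of 318 lower genes and 13.9% of all 18325 coding genes compared. The median was 2 exons in higher, 3 in lower and 5 in all genes. The share counted higher declined with exon number, from 12.5% of single-exon genes to 7.21% of genes with 2, 4.33% with 4 to 5 and 1.77% with more than 10. The share counted lower was 3.29% in single-exon genes and 0.775% in those with more than 10. The same held at matched level. Between 10 and 30 RPKM 13.6% of single-exon genes and 2.57% of genes with several exons were counted higher, and above 100 RPKM 10.1% and 3.55%. The gap was smallest between 1 and 3 RPKM, with 10.3% and 7.75%. Genes with no described product made up 11.2% of higher coding genes and 6.38% of all. Higher genes were also scarcer at the outset, with a median of 3.84 RPKM in control 2 h beside 12.4 over all, a level that enters the ratio.

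**Figure D4:**
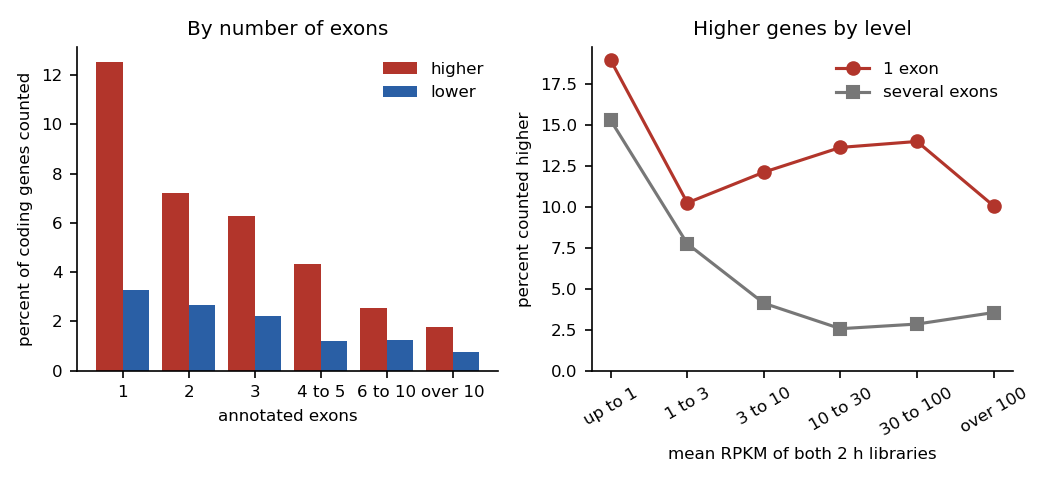
Left: percent of coding genes counted higher (red) or lower (blue) by number of annotated exons. Right: percent counted higher among single-exon genes (circles) and genes with several exons (squares), by mean RPKM of both 2 h libraries. Single-exon genes lie above the others in every level class, by most between 10 and 100 RPKM.

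Higher genes lay next to each other on the chromosome more often than genes at large. Of 953 higher genes placed on the nuclear chromosomes, 145 had a neighbour in the table that was also higher (15.2%), whereas 6.66% of all genes compared had such a neighbour. For lower genes the shares were 2.97% and 2.47%. There were 69 runs of higher neighbours, 6 of them with 3 or more genes. The longest, chr1:1701116-1713474 in TAIR10.1, held 4 genes: the glycosyltransferases AT1G05675 and UGT74E2, AT1G05690 (a BTB and TAZ domain protein) and the receptor kinase AT1G05700. AT1G05675 had 0.507 RPKM in control 2 h, 1.24 in control 12 h and 11.8 in narciclasine 2 h. For AT1G05690 the levels were 0.28999 RPKM in control 2 h, 0.456 in control 12 h and 1.73 in narciclasine 2 h. Another run held the C1 domain genes AT3G27480, AT3G27490 and AT3G27500. The last of them had 1.44 RPKM in control 2 h, 1.31 in control 12 h and 4.53 in narciclasine 2 h. A run on chromosome 4 held the receptor kinases B120, CRK28 and CRK29. Some runs are tandem copies, whose shared reads may raise neighbours together. AT1G05675 and UGT74E2 are adjacent glycosyltransferases, so this may apply to them, and their run also holds genes of other families. Overlapping transcripts were not separated, since the use of strand is not given in the sources used here.

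Among the remaining motifs, site II was the 1 that was scarcer in higher genes by a wide margin. Site II (TGGGCC), common in genes of translation and the cell cycle, was in 6.93% of the promoters of higher genes, 17.5% of lower genes and 18.95% of all. The as-1 core TGACG, bound by TGA factors, was in 25.8%, 28.8% and 23.7%, and the CGCG box CGCGT of calmodulin-binding activators in 10.8%, 11.6% and 9.73%. The GCC box GCCGCC had shares of 3.57%, 1.78% and 2.69%, the evening element (AAAT followed by ATCT) 6.401%, 6.82% and 5.82%, the telo box (AAAC followed by CCTA) 4.83%, 3.26% and 5.62%, and the heat shock element of 2 units 14.1%, 13.1% and 11.4%. All were read on both strands. A promoter without a match says only that those letters are not in this window.

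**Figure D5:**
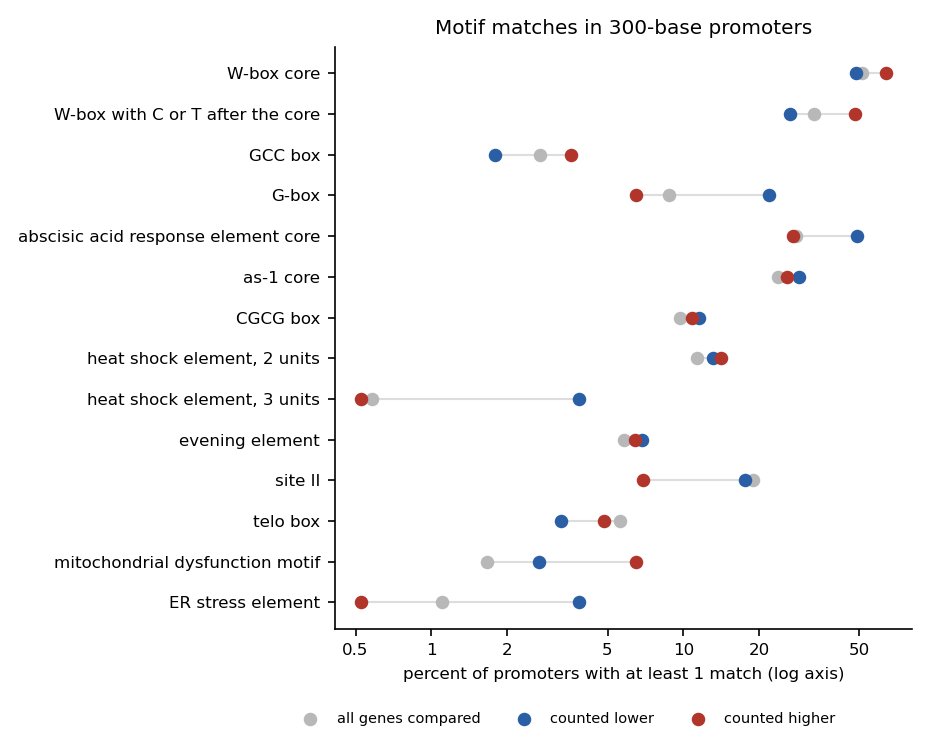
Percent of 300-base promoters with at least 1 match of each of 14 motifs, on a log axis, for genes counted higher (red), lower (blue) and all genes compared (grey). The mitochondrial dysfunction motif is most frequent in higher genes, and the G-box, the 3-unit heat shock element and the ER stress element are most frequent in lower genes.

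The comparison at 12 h shares no library with the one at 2 h. There, 2181 of the same 18792 genes were counted higher in narciclasine than in control (11.6%) and 2864 lower (15.2%). Of the 954 genes higher at 2 h, 389 were also higher at 12 h, 40.8% of the 2 h genes and 17.8% of those higher at 12 h. Another 73 were lower at 12 h (7.65%), and 492 were not counted. Of the 338 genes lower at 2 h, 145 were lower again, 42.9% of the 2 h genes and 5.06% of those lower at 12 h, and 23 were higher. Genes that stayed high in both included AT2G41730, AOX1A, UGT74E2 and the ABC transporters named above. Among genes counted at 2 h alone, XTR6, a xyloglucan-modifying enzyme, had 17.6 RPKM in control 2 h, 28.7 in control 12 h, 79.4 in narciclasine 2 h and 44.7 in narciclasine 12 h. AT5G42410, an auxin-responsive SAUR gene, had 0.614 RPKM in control 2 h and 10.4 in narciclasine 2 h, beside 0 and 0.606 in the control and narciclasine libraries of 12 h.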

How the data were processed

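RNA was sequenced from 4 libraries, 1 per group. The authors deposited RPKM values per gene, 1 file per library and 1 table of all 4, and the values of both agreed. Among the tools and builds in the submitters' processing notes are edgeR, Bowtie 0.12.2 and mm8. The last is a mouse build, whereas the gene identifiers are those of Arabidopsis, so the build behind the values is unclear. The treatment of reads shared by genes, and of strand, is not given in the sources used.

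Each library's size was recovered from the RPKM values, which are whole multiples of the value of 1 read. Reads per gene were then taken at the smallest gene length that gave whole reads within a tolerance of 0.02. They may be too low by a common factor, which makes an interval too wide. Recovered reads came to between 97.5% and 98.0% of the library sizes. Ratios are of deposited RPKM. The 95% intervals are exact (Clopper-Pearson) and cover counting error only. Reads are not independent molecules where PCR copied them. With 1 library per group no test was run and no p-value is given. Fold changes are unshrunk, and a single gene at 0 in a library was given no fold there. In the 2 h medians of lists and families its 0 was replaced by a floor of 3 reads.

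The members and gene lists were chosen with earlier results of these data known. Families were matched by annotation terms and by symbol. Some terms were corrected, and several families added, after the values were seen. Named genes were the 12 largest RPKM differences each way among the genes counted, the 12 with the interval farthest from 1, up to 4 per list each way, up to 2 of the highest level in a list with none counted, and the 8 highest among those under 1 RPKM in the other library. Genes outside this rule, namely EXT3, GSTU24, the L3 pair, WRKY33, WRKY40, FRK1, ZAT12, FIT, P5CS1 and genes in runs of neighbours, were named after their values were seen. Of the identifiers compared, 18721 matched the RefSeq TAIR10.1 annotation, from which exons, neighbours and 300-base promoters were taken. Scripts ran under Python 3.11.15 with SciPy 1.17.1, pandas 2.3.3, matplotlib 3.10.9 and numpy 2.4.6, and were tested on simulated data. Other filters, scalings, thresholds and the other control were tried.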

Additional observations from a re-analysis of the deposited data

Results flagged for a closer look

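Of all genes compared, 73 were counted higher at 2 h and lower at 12 h, and 23 the other way. Among them are 14 genes that the naming rule had chosen for the 2 h comparison, and these are given here. In each the single narciclasine library lay on opposite sides of its control at 2 h and at 12 h, by at least 2-fold each time. The difference between the times was not tested, and each ratio compares 1 library with 1.

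Of the 14, these were higher at 2 h and lower at 12 h. ST4C (AT1G13430), a sulfotransferase, had a ratio of narciclasine to control of 3.13 at 2 h and 0.0689 at 12 h. The neighbouring peroxidase genes PER4 (AT1G14540) and AT1G14550 had ratios of 3.47 and 4.19 at 2 h, then 0.244 and 0.0664 at 12 h. AT1G30280 stood at 2.49 and then 0.269. PUB29 (AT3G18710), a ubiquitin ligase, had 3.23 and then 0.339. The histone H3 gene AT3G27360 had 2.16 and then 0.332. AT3G46400, a leucine-rich repeat kinase, had 6.96 at 2 h and was listed at 0 in narciclasine 12 h. PSBQ-2 (AT4G05180), a subunit of photosystem II, had 2.16 and then 0.421. AT5G26730 had 2.30 and then 0.461, and the C1 domain gene AT5G43520 had 3.42 and then 0.422.

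The other 4 of the 14 were lower at 2 h and higher at 12 h. AT1G73120 had a ratio of 0.327 at 2 h and 2.42 at 12 h, and AT1G77880 had 0.227 and then 2.52. The glycosyltransferase AT2G22590 had 0.361 and then 2.63. IRT1 (AT4G19690), the iron importer, had 0.347 and then 2.85.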

How the results depend on the processing

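The counts of 954 higher and 338 lower genes stayed within 1.5 times under no filter (1025 and 394), TMM scaling (880 and 373), centring on the median (882 and 373) or the upper quartile (810 and 419), the fold alone (1058 and 436), nuclear coding genes (938 and 318) and annotated transcript lengths (968 and 346, added after seeing the data). A 1.5-fold limit gave 2273 higher and 965 lower, a 4-fold limit 224 and 55, and a whole interval beyond 2-fold 458 and 97. Against each of the 2 controls, added after seeing the data, 612 were higher and 170 lower. A filter of 5 RPKM left 174 lower beside 662 higher, and RPKM plus 1 left 171 beside 661. With control 12 h in place of control 2 h, in the filter as well, 944 were lower and 1396 higher.

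Of 93 medians of lists and families, control 12 h moved 28 by more than 0.25 log2, and 26 took the other sign. The filter of 5 RPKM moved 3, RPKM plus 1 moved 1, and TMM or median centring moved 0. No library could be left out. No paired analysis was possible because the groups hold 1 library each and share fewer than 2 numbers. Depth limits genes near 1 RPKM, whose intervals are wide.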
